A study of Mus musculus with 134 samples.

Results

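The transcripts of 8 genes that store, import, export or sense iron were followed in mouse embryonic stem cells (mESCs): the ferritin subunits Ftl1 and Fth1, the importers Tfrc and Slc11a2, the exporter Slc40a1, the iron regulatory proteins Ireb2 and Aco1, and the ferritin receptor Ncoa4. They are 8 of the 25209 genes of the bulk count tables and 8 of the 18817 genes of the single-cell tables. They were picked by name, with Ftl1 at the centre because its counts nearly vanish in some libraries. The levels of Ftl1 in the different sets of bulk libraries are therefore given as a description, with no test.

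Ferritin is a hollow shell built from light (Ftl1) and heavy (Fth1) subunits, in which the heavy chain oxidises iron and the light chain helps to deposit it. Cells take up iron bound to transferrin through the transferrin receptor (Tfrc) and release it through ferroportin (Slc40a1). When iron is scarce, the iron regulatory proteins bind hairpins called iron-responsive elements (IREs), which holds back translation of ferritin and ferroportin and stabilises the Tfrc transcript. Because the ferritins are regulated largely in translation, their transcript levels and protein levels need not move together.

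The cells were E14 mESCs of strain 129/Ola, named ES-E14TG2a in the study's methods, and were grown on gelatin in serum with LIF. SET-seq splits a lysed sample into nuclei, whose chromatin is tagged with an antibody, and cytoplasmic RNA, which is reverse transcribed with oligo-dT and cut by Tn5. A total of 54 bulk expression libraries in 27 conditions of 2 libraries each, and 16 single-cell expression experiments, were analysed here. The groups were as follows. The 28 in vitro libraries were made by Tn5 tagmentation of cDNA from purified total RNA, and varied Tn5 (at 25, 50 and 100 ng/ul), RNA input (300 ng, 3 ng or 30 pg), or the temperature and time (16 or 37 °C for 5, 10, 15 or 30 min). Untreated cells gave 8 SET-seq libraries without an antibody (10, 100, 1000 or 10000 cells) and 12 with an H3K4me3 or H3K27me3 antibody on the nuclei (100, 1000 or 10000 cells). A pair of ligation-based RNA-seq libraries was prepared from poly-A RNA of total RNA. By the methods, these were reverse transcribed with random primers, and the in vitro libraries with oligo-dT. They were also sequenced on another platform with shorter reads than the in vitro libraries. Aebp2 encodes a cofactor of the histone methyltransferase complex PRC2, and 4 SET-seq libraries came from Aebp2 knockout (KO) cells, 2 libraries from each of the clones KO1 and KO2, which CRISPR/Cas9 made with different guides. The labels of the KO libraries give no number of cells. In the single-cell experiments, cells had met Wnt3a-coated beads for 12 h, and daughter cells proximal or distal to the bead were picked by hand. Nothing in the labels says that replicate libraries came from separate cultures. The study describes the 2 libraries of each temperature and time condition as biologically independent, and 2 independent experiments for each KO line. The p-values measure the spread between libraries, which may still be technical in part.

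Levels are given as CPM, the count of a gene scaled to a common library size, without the ribosomal precursor Rn45s, which took 1.54% to 84.6% of the counts. The remaining totals ranged from 188275 to 16888686 counts per library. The shallowest were 1 library of 10 cells, 1 of 1000 cells and 1 of 30 pg RNA, at 188275, 195539 and 323449 counts, and the KO libraries held 935126 to 1124026. All 8 embryonic stem cell markers checked, Pou5f1 and Nanog among them, had counts in every set of bulk libraries, with a summed level of 3505 to 8536 CPM. Among markers of other cells, macrophage markers summed to 0 to 97.7 CPM, endoderm markers to 1.38 to 37.1, fibroblast markers to 0 to 29.0 and erythroid markers to 0 to 3.92, and the globins Hbb-b1 and Hba-a1 had no counts in any bulk library. The highest macrophage sum was all Cd68. In bulk samples, fewer cells of a type and less RNA per cell cannot be told apart.

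The IREs tie the ferritins, Tfrc and Slc40a1 together, so they are shown here as found in the protein-coding transcripts of build NCBIM37 (mm9). The search took a bulged C, 5 bases, the loop CAGTGN and 5 bases that pair with the first 5, with G-T pairs allowed, on the transcript strand only. Capitals mark the bulged C and the loop of 6 bases, and each line gives 27 bases from 5′ to 3′.
Ftl1 5′ UTR, chr7:52715150-52715176, minus strand: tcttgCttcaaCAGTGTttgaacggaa
Fth1 5′ UTR, chr19:10057223-10057249, plus strand: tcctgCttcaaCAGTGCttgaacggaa
Slc40a1 5′ UTR, chr1:45982311-45982337, minus strand: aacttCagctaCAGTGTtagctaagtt
Tfrc 3′ UTR, chr16:32631306-32631332, plus strand: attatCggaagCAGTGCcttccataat
Tfrc 3′ UTR, chr16:32631685-32631711, plus strand: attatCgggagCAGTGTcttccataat
Tfrc 3′ UTR, chr16:32631750-32631776, plus strand: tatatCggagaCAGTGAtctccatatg
Tfrc 3′ UTR, chr16:32631797-32631823, plus strand: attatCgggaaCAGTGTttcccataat
The ferritin hairpins share their stem bases next to the loop, and Tfrc holds 4 matches within its 3′ UTR. No match was found in the transcripts of Ireb2, Aco1, Slc11a2 and Ncoa4, which says only that these letters are not there. Of all 22754 protein-coding genes, 280 (1.23%) had a match, so the pattern alone is a description and not a set of proven elements.

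Ftl1, the ferritin light chain, has 4 exons with 970 exon bases on the minus strand of chromosome 7, from 52713314 to 52715256 in the files' coordinates. Its level fell into 2 separate ranges. In 32 libraries, all 28 in vitro and all 4 KO, it lay between 0 and 57.2 CPM with a median of 18.2. In the other 22 libraries, SET-seq without KO and ligation-based, it lay between 812 and 8391 CPM with a median of 6325. No library fell between these ranges, and the lowest library of the high range was 14.2 times the highest of the low range.

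**Figure D1:**
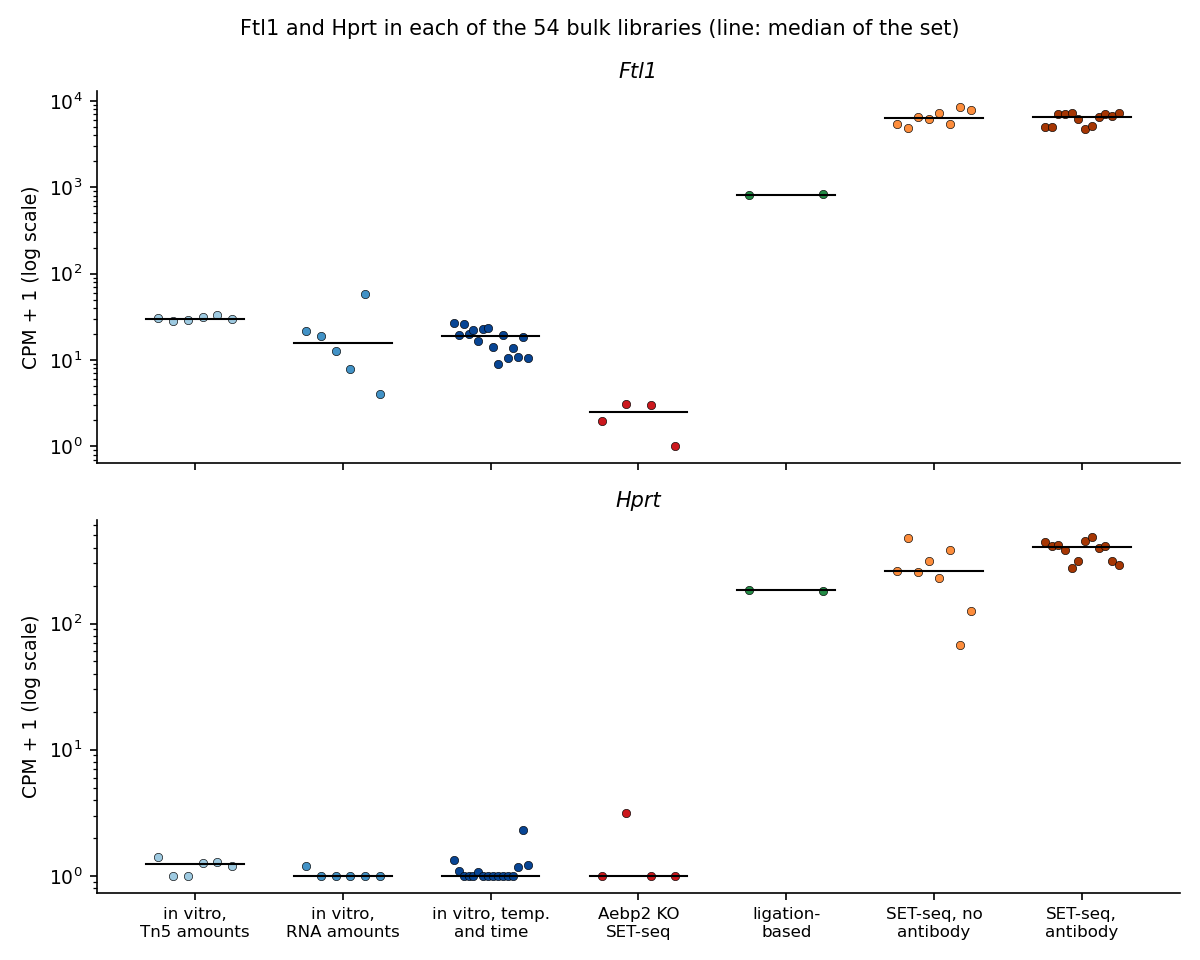
Ftl1 (top) and Hprt (bottom) in CPM + 1 on a log scale, 1 point for each of the 54 bulk libraries, grouped by library set, with a line at the median of the set. The in vitro and Aebp2 KO libraries stay at or below 57.2 CPM of Ftl1 and 2.14 CPM of Hprt, and the ligation-based and other SET-seq libraries are at 812 CPM of Ftl1 or more and 66.2 CPM of Hprt or more.

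Within the low range, the in vitro libraries had few but countable Ftl1 reads. The Tn5 series gave 29.5 and 27.1 CPM at 25 ng/ul, 28.3 and 30.6 at 50 ng/ul, and 32.4 and 28.9 at 100 ng/ul. The RNA series gave 20.8 and 18.0 CPM at 300 ng, 11.7 and 6.95 at 3 ng, and 57.2 and 3.09 at 30 pg. The last pair rests on 157 counts and 1 count, so the highest library of the low range had a replicate among the lowest. The temperature and time series had 15.7 to 26.0 CPM at 16 °C and 7.96 to 18.3 CPM at 37 °C. The KO libraries were lower still, with 0.981 and 2.14 CPM in KO1 and 1.99 and 0 CPM in KO2, that is 1, 2, 2 and 0 counts. The library at 0 held 1124026 counts, in which 3 counts would be 2.67 CPM, so at this depth a level up to that value would not be detectable.

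The high range was wide as well. SET-seq without an antibody gave 5427 and 4855 CPM of Ftl1 from 10 cells, 6558 and 6147 from 100, 7303 and 5344 from 1000, and 8391 and 7848 from 10000. With the H3K4me3 antibody the levels were 4948 and 4999 CPM at 100 cells, 6972 and 7126 at 1000, and 7206 and 6094 at 10000. With the H3K27me3 antibody they were 4704 and 5071 CPM at 100 cells, 6503 and 6990 at 1000, and 6640 and 7152 at 10000. The ligation-based libraries stood apart from all of these, at 812 and 826 CPM, yet far above every in vitro library made from total RNA.

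The low range thus holds SET-seq libraries of KO cells as well as in vitro libraries whose labels name no KO. The KO libraries summed to 5 Ftl1 counts of 4084382, or 1.22 CPM, against 5838 CPM in the H3K27me3 SET-seq libraries without KO. The 28 in vitro libraries summed to 22.3 CPM, and those made at 37 °C for 5 min to 10.8 CPM, against 7123 CPM in SET-seq without an antibody. Total RNA was the starting material of both the in vitro and the ligation-based libraries, and the temperature and time series summed to 17.4 CPM against 819 CPM in the ligation-based libraries. These sums describe the values by which the gene was picked, and the KO level rests on 5 counts.

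The same 32 libraries were also nearly empty of Hprt, the purine salvage enzyme, which was added as a reference gene with earlier results known, since the E14TG2a line is known as Hprt-deficient. Hprt was at 0 in 20 of the 32 libraries and at most 2.14 CPM, or 4 counts, in the others. In the 22 libraries with high Ftl1 it lay between 66.2 and 485 CPM. Hprt in these 22 libraries goes against the name of the line, and the labels give the same cell type for all 54 libraries. No label names a stock of cells, so whether the 2 ranges follow the stock was not tested.

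**Figure D2:**
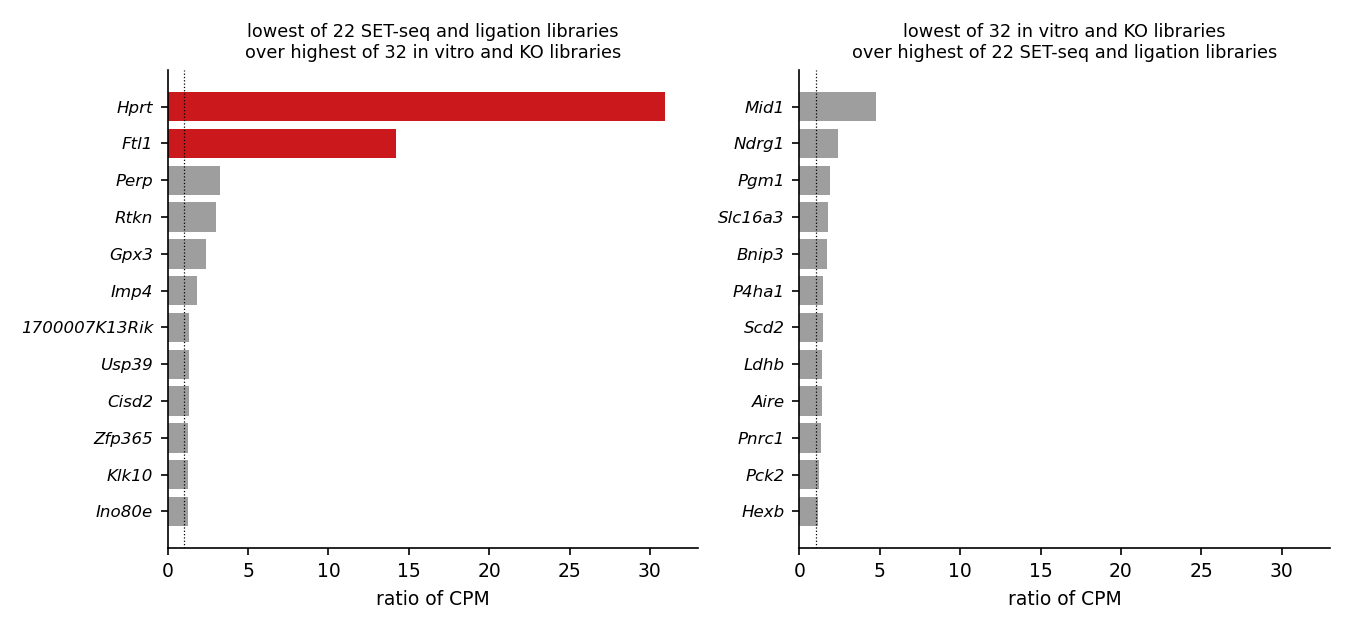
Ratio of the lowest library on one side to the highest library on the other, in CPM, for the 12 genes with the largest ratio in each direction, with a dotted line at 1. Left, genes higher in the 22 SET-seq and ligation-based libraries, where Hprt (30.9) and Ftl1 (14.2) stand apart, and right, genes higher in the 32 in vitro and KO libraries, led by Mid1 (4.78).

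The split was measured for each of the 8747 genes with a mean of at least 10 CPM over the 27 conditions. The groups did not overlap for 25 genes (0.286%) that were higher in the 22 libraries and for 21 genes (0.240%) that were lower there. Hprt had the largest ratio, 30.9, and Ftl1 was next. Perp followed with 3.23, Rtkn with 2.97, Gpx3 with 2.35 and Imp4 with 1.83. In the other direction Mid1 led with 4.78, Ndrg1 had 2.37 and Pgm1 1.93. Only Hprt and Ftl1 exceeded 10 in this measure, and both had been chosen with the split in view, so the ranks are a description.

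Ftl1 is a gene with many near copies, which bears on its counts because reads that map to several places were not counted in the bulk tables. Elsewhere in the genome, 12 alignments were at least 90% identical to its exons, and 6 of them covered over 80% of their length. The closest was on chromosome 13 from 74543841 to 74544766 (99.5% identical), followed by copies on chromosome 17 from 6131691 to 6132619 and chromosome 4 from 125181324 to 125182246 (both 99.0%). Of all 100-base stretches of the Ftl1 exons, 60.6% also stand letter for letter elsewhere, and 46.0% of the 150-base stretches do. Its counts come from the remaining stretches and are uncertain to that extent. A short copy of 397 bases (97.7% identical) holds the gene Mir692-1 on chromosome 17, from 7099578 to 7099686. Mir692-1 had 6.66 to 18.1 CPM in the Tn5 series, 0 to 9.15 in the RNA series and 0 to 10.2 in the temperature and time series, but no more than 0.890 in any SET-seq or ligation-based library. The methods give reads of 100 bases for the ligation-based libraries and of 150 bases for the in vitro libraries. How read length and reads of Ftl1 copies enter the difference between libraries was not tested. Ncoa4 has a copy on chromosome 12, from 120499406 to 120502748, that is 99.8% identical over 79.9% of its exon bases, and 72.0% of its 100-base and 67.9% of its 150-base stretches stand elsewhere, so its counts, and its level per exon length, are uncertain as well. No other member had a copy at least 98% identical over 100 bases.

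Fth1, the heavy chain, did not follow the same division. It lies on the plus strand of chromosome 19 from 10055090 to 10059601, with 1511 exon bases and no copy at least 98% identical over 100 bases. In the in vitro libraries Fth1 was abundant, at 1205 to 2177 CPM in the Tn5 series, 849 to 1432 in the RNA series and 1043 to 1250 in the temperature and time series. SET-seq gave 1089 to 2583 CPM without an antibody and 1594 to 2182 with one. The lowest Fth1 levels belonged to the ligation-based libraries, at 496 and 490 CPM, and to the KO libraries, at 446 and 428 CPM in KO1 and 294 and 299 in KO2. Per exon length, the ratio of Ftl1 to Fth1 was 0.00397 to 0.105 in the in vitro libraries, 0 to 0.0105 in the KO libraries, 2.55 to 2.62 in the ligation-based libraries and 3.83 to 7.64 over all other SET-seq libraries. The range of the KO libraries overlapped that of the in vitro libraries and neither came near 1.

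Among themselves, the members were ordered by level per exon length (RPKM). In SET-seq with an antibody, the medians of 12 libraries were 6775 RPKM for Ftl1, 1235 for Fth1, 107 for Tfrc, 25.2 for Ireb2, 18.3 for Aco1, 6.71 for Slc11a2, 1.56 for Ncoa4 and 0.135 for Slc40a1. Ireb2 (20.8 to 29.4 RPKM) and Aco1 (15.2 to 22.6) overlapped, as did Ncoa4 and Slc40a1, and the other neighbours did not. In the KO libraries Fth1 came first with a median of 240 RPKM, Tfrc had 67.9, Aco1 31.4, Ireb2 28.4, Slc11a2 8.11 and Ncoa4 2.12, and Ftl1 with 1.53 was next to last, ahead of Slc40a1 with 0.408. There the ranges of Aco1 and Ireb2, of Ncoa4 and Ftl1, and of Ftl1 and Slc40a1 overlapped.

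**Figure D3:**
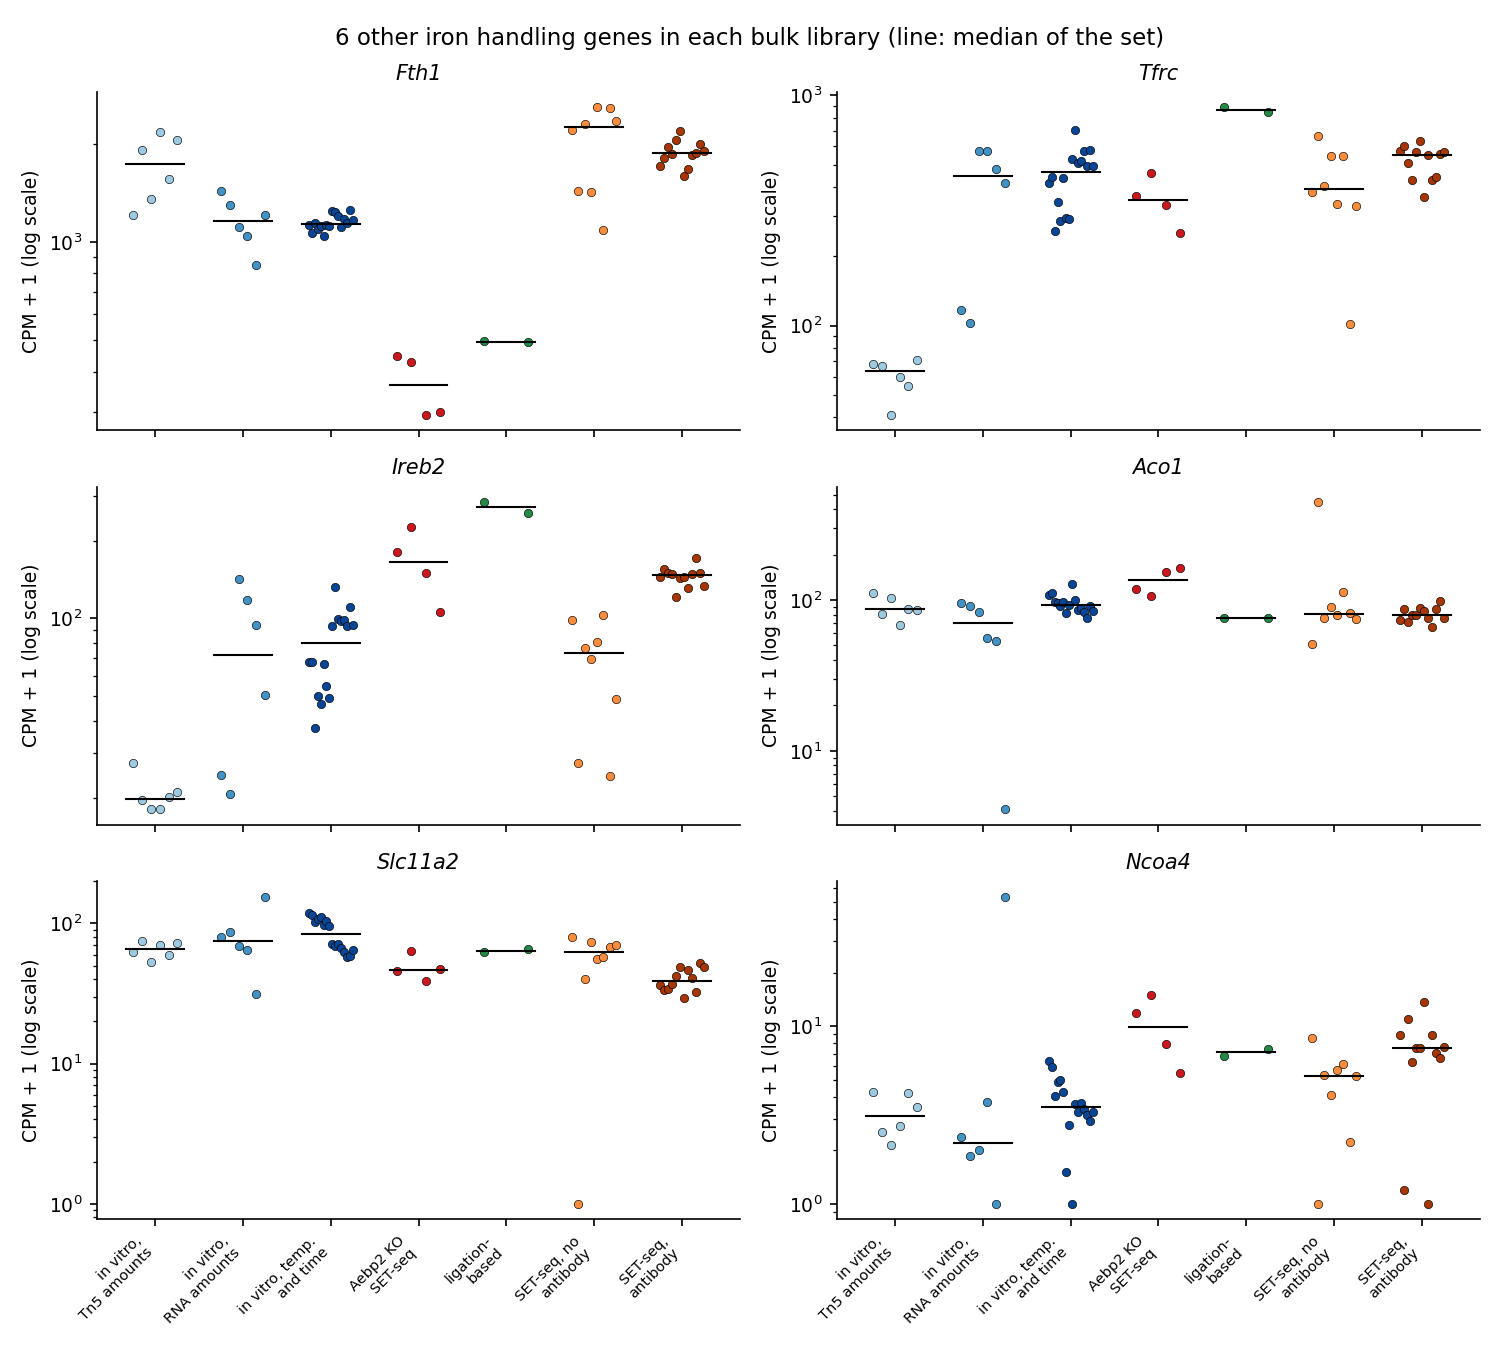
Fth1, Tfrc, Ireb2, Aco1, Slc11a2 and Ncoa4 in CPM + 1 on a log scale, 1 point for each of the 54 bulk libraries in 7 sets, with a line at the median of the set. Fth1 is lowest in the KO and ligation-based libraries. Tfrc and Ireb2 are low in the Tn5 series and in 2 libraries of the RNA series. SET-seq without an antibody also reaches down to 101 CPM of Tfrc and 23.4 CPM of Ireb2. No Tfrc value lies between 115.5 and 253 CPM.

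The genes whose levels followed Ftl1 most closely over the 27 conditions, by Pearson's r of log2(CPM + 1), were Hprt (0.96), Fam32a (0.96), Ak1 (0.95), Perp (0.95), S100a6 (0.94), Smtnl1 (0.94), Nhp2 (0.94), Imp4 (0.94), Ube2f (0.94) and Klk10 (0.94). Fth1 had an r of 0.65 with Ftl1 and was at rank 872 of 8747. Of the remaining members, Tfrc had 0.28, Ireb2 0.25, Aco1 -0.05 and Slc11a2 -0.58. For Fth1, the most like genes were Mrps24 (0.95), Brk1 (0.93), Ocel1 (0.92), Timm10b (0.91) and Mrpl36 (0.90). The conditions fall into 7 sets that share a way of library preparation, so r mainly compares sets, and it is given with no p.

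For the KO, the question was which of these transcripts differ in the clones from the H3K27me3 SET-seq libraries without KO (WT). Aebp2 itself, the targeted gene, had 15.7 and 15.0 CPM in KO1 and 49.7 and 30.2 in KO2 against 34.7 to 76.0 in the 6 WT libraries. It fell by 0.88 on the log2 scale (SE 0.31, adjusted p = 0.0253, edgeR quasi-likelihood test with Benjamini-Hochberg adjustment). The KO2 library at 49.7 CPM lay within the WT range, and the one at 30.2 CPM lay below it. Of 10495 genes tested, 47.0% were called at an adjusted p below 0.05, 22.5% higher and 24.5% lower in KO. Of the 6 members tested, 1 rose and 2 fell. The KO and WT libraries also lie on opposite sides of the Ftl1 and Hprt division, so the KO cannot be told apart from what divides these libraries.

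Fth1 fell most. The WT libraries had 1594 and 1677 CPM at 100 cells, 1845 and 1876 at 1000, and 1994 and 1901 at 10000, all above the 294 to 446 CPM of the KO libraries. The log2 fold change was -2.25 (SE 0.14, adjusted p = 1.95e-09, edgeR), which was 4.76-fold lower. Aco1, a cytosolic aconitase that without its iron-sulfur cluster acts as iron regulatory protein, rose. It had 118 and 106 CPM in KO1 and 153 and 162 in KO2 against 65.5 to 97.8 in WT, and the groups did not overlap (log2 fold change 0.82, SE 0.17, adjusted p = 0.00072, edgeR). With KO1 alone, the change was 0.44 (adjusted p = 0.0794) and no longer passed.

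Tfrc, the transferrin receptor, passed the threshold narrowly. It had 365 and 459 CPM in KO1 and 334 and 253 in KO2, against 360 to 566 in WT, and the groups overlapped. The log2 fold change was -0.40 (SE 0.16, adjusted p = 0.0437, edgeR). In 9 of 21 alternatives the adjusted p stayed below 0.05. These include the rule that asks for an absolute log2 change above 1, which Tfrc did not pass. Leaving out any single library lost the call (adjusted p from 0.0530 to 0.111) except replicate 1 of H3K27me3 with 100 cells and replicate 2 of KO1. Against SET-seq of 10000 cells without an antibody, where Tfrc had 101 and 329 CPM, the change turned to 0.64 (adjusted p = 0.103).

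The other regulators and transporters did not pass. Ireb2, the iron regulatory protein that is degraded when iron is plentiful, had a log2 fold change of 0.22 (SE 0.17, adjusted p = 0.290). Against the 10000-cell libraries without an antibody, where it had 23.4 and 47.8 CPM, the change was 2.12 (adjusted p = 4.63e-05) and passed. Slc11a2, which carries ferrous iron across membranes, had 0.31 (SE 0.21, adjusted p = 0.234), and this turned to -0.62 (adjusted p = 0.0338) with the 10000-cell libraries without an antibody as WT. Ncoa4, the receptor that delivers ferritin to lysosomes, had 0.50 (SE 0.74, adjusted p = 0.609) on 5 to 13 counts per KO library. Slc40a1 had at most 2 counts in a KO library and 4 in a WT library and was not tested. These values do not show that the genes were the same in KO and WT.

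**Figure D4:**
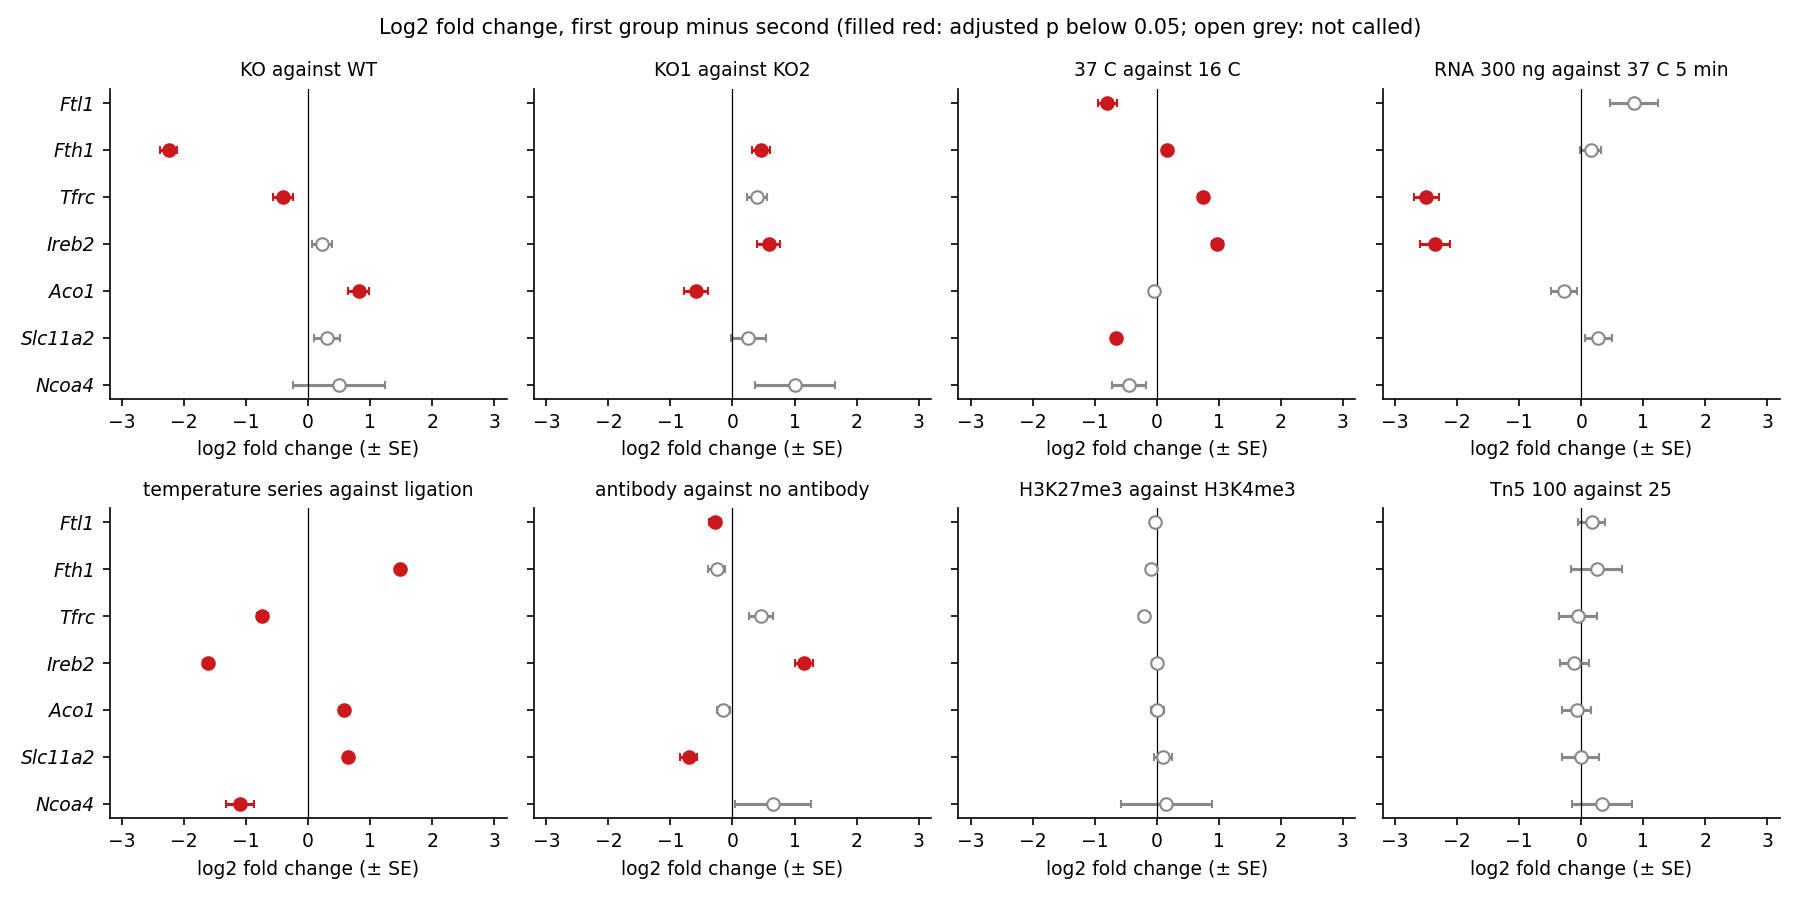
Log2 fold changes of Ftl1, Fth1, Tfrc, Ireb2, Aco1, Slc11a2 and Ncoa4 (first group minus second, bars are SE) in 8 bulk comparisons, filled red where the adjusted p of edgeR is below 0.05. Ftl1 is left out where its level chose it (KO against WT, temperature series against ligation) and genes that failed the filter on low counts have no point. The largest called changes are those of Tfrc (5.65-fold lower) and Ireb2 (-2.36) for RNA 300 ng against 37 °C 5 min and of Fth1 (-2.25) for KO against WT.

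When the KO was set against in vitro libraries made at 37 °C for 5 min, which share the low range of Ftl1 and Hprt but differ in library type, 37.8% of 9176 genes were called, 18.8% higher and 19.0% lower. This reference was chosen after the data were seen. Fth1 had 1246 and 1234 CPM in these libraries and was again lower in KO, by a log2 fold change of -1.74 (SE 0.19, adjusted p = 4.01e-06, edgeR). Tfrc had 529 and 709 CPM there and the KO change was -0.80 (SE 0.21, adjusted p = 0.0065). Aco1, with 126 and 99.4 CPM, was not called (0.28, adjusted p = 0.382). Ncoa4 was called at 2.76 (SE 0.97, adjusted p = 0.034), on 0 and 2 counts in the reference. Fth1 and Tfrc were thus called lower in KO against either reference, while the calls of Aco1 and Ncoa4 held for 1 reference each. Both comparisons share the KO libraries. For Tfrc, the direction depends on which in vitro libraries are taken. It had 102 and 115.5 CPM at 300 ng RNA and 40.0 to 69.7 CPM in the Tn5 series. These levels lie below the 253 to 459 CPM of the KO libraries, and the KO was not tested against them.

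Fold changes in KO followed exon length over all genes, with a Spearman rho of 0.52 over 10495 genes, which are not independent replicates. Fth1, with 1511 exon bases, is shorter than Aco1 (4319), Tfrc (5149), Slc11a2 (5635) and Ireb2 (5808). Its part in the results was not tested. Of 8 embryonic stem cell markers, 4 were lower in KO (24.5% of all genes were) and none higher, Klf4 at -2.44 and Nanog at -0.54 among them. The study, which asked for an absolute log2 change above 1, reports Oct4, Nanog and Sox2 as not changed in KO. The summed level of the markers was 3505 to 4059 CPM in KO against 5059 to 5805 in SET-seq with an antibody. Low sums occurred with no KO as well, at 3514 to 5869 CPM in SET-seq without an antibody and 4204 to 4828 in the temperature and time series. All 4 macrophage markers had counts in both sets, with a summed level of 3.56 to 14.9 CPM in KO against 18.4 to 59.0. The lower sum in KO came from Cd68, at 2.94 to 11.8 CPM against 18.4 to 56.6. Csf1r, Ptprc and Lyz2 had medians of 1.03, 0.497 and 0 CPM in KO and of 0 with an antibody. Rn45s took 48.8% to 56.7% of the counts in KO and 15.2% to 34.2% in SET-seq with an antibody. The part of these in the results was not tested.

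A wider list of 51 iron genes, 50 of them in the bulk table, was followed beside the members. In KO against WT, 41 were tested, 5 rose and 13 fell, beside 22.5% and 24.5% of all genes tested, and their median log2 fold change was -0.24 against -0.02 over all genes. Most of the fallers belonged to mitochondrial iron, iron-sulfur cluster and heme synthesis, where 12 of 20 fell (24.5% of all genes did), 2 rose and the median was -0.83. Falls of these 20 genes were not particular to the KO. At 37 °C against 16 °C, 13 fell (32.4% of all genes did) and 6 rose, and with an antibody 10 fell (21.5%) and 3 rose. In the temperature series against ligation, 6 were lower (42.1%) and 11 higher (38.9%). Alad, an early enzyme of heme synthesis, fell by 2.12 on the log2 scale (SE 0.24, adjusted p = 1.34e-06, edgeR). Glrx5, which hands on iron-sulfur clusters, fell by 1.59 (SE 0.21, adjusted p = 7.10e-06). Srxn1, a sulfiredoxin among the NRF2 target genes, fell by 2.00 (SE 0.41, adjusted p = 0.000564). The largest rises were those of the ferrireductase Steap2 (1.71, SE 0.46, adjusted p = 0.00489), the heme-binding repressor Bach1 (1.27, SE 0.22, adjusted p = 0.000148) and the mitochondrial transporter Abcb10 (0.94, SE 0.31, adjusted p = 0.0179).

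The clones differed from each other in the members at the edge of the threshold. For KO1 against KO2, 10.0% of 8551 genes were called, 5.20% higher and 4.83% lower in KO1, and of the 6 members tested 2 were higher and 1 was lower. Fth1 was higher in KO1 by 0.46 on the log2 scale (SE 0.14, adjusted p = 0.0363, edgeR). Ireb2 had 181 and 226 CPM in KO1 against 149 and 105 in KO2 (0.58, SE 0.19, adjusted p = 0.0469). Aco1 was lower in KO1 (-0.59, SE 0.19, adjusted p = 0.0438). In these 3 members the clones did not overlap, but every one of the calls was lost with DESeq2 and without either KO1 library: without KO1 replicate 2, adjusted p was 0.313 for Fth1, 0.535 for Ireb2 and 0.422 for Aco1. Ireb2 (adjusted p = 0.299) and Aco1 (adjusted p = 0.119) also lost the call without KO2 replicate 2. Tfrc had 0.39 (SE 0.16, adjusted p = 0.107), Slc11a2 0.26 and Ncoa4 1.01, and none of these passed. Ftl1 and Slc40a1 had too few counts to be tested. Among 34 other iron genes tested, Isca1 (-1.42), of the iron-sulfur cluster machinery, and the iron chaperone Pcbp2 (-0.77) were lower in KO1.

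Within the low range, Ftl1 moved with the temperature of tagmentation. All 16 libraries of that series were tested with time as a factor. At 16 °C Ftl1 had 26.0 and 18.7 CPM after 5 min, 24.8 and 19.1 after 10, 21.0 and 15.7 after 15, and 22.2 and 22.5 after 30. At 37 °C it had 13.2 and 7.96, 18.3 and 9.42, 12.6 and 9.81, and 17.4 and 9.57 CPM after the same times. The levels at 37 °C were mostly below those at 16 °C, with an overlap between 15.7 and 18.3 CPM. Of 11292 genes, 65.3% were called, 32.9% higher and 32.4% lower at 37 °C, and of the 7 members tested 3 rose and 2 fell. Ftl1 fell by 0.80 on the log2 scale (SE 0.16, adjusted p = 6.85e-05, edgeR).

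Ireb2 and Tfrc rose at 37 °C. Ireb2 had a mean of 101 CPM (SD 13.2, n = 8) at 37 °C against 53.9 (SD 11.4, n = 8) at 16 °C, and its ranges did not overlap (log2 fold change 0.98, SE 0.09, adjusted p = 1.10e-10, edgeR). Tfrc had 549 CPM (SD 72.4) against 345 (SD 75.5), again without overlap (0.74, SE 0.08, adjusted p = 3.29e-09). Slc11a2 moved the other way, with 64.2 CPM (SD 5.16) at 37 °C against 105 (SD 8.0) at 16 °C and no overlap (-0.66, SE 0.06, adjusted p = 6.61e-10). Fth1 changed little, by 0.17 (SE 0.05, adjusted p = 0.00746), and this call was lost without either replicate number and with no filter on low counts (adjusted p from 0.0843 to 0.146). Aco1 (-0.04, adjusted p = 0.582) and Ncoa4 (-0.45, adjusted p = 0.152) were not called. Among 40 other iron genes tested, 12 rose and 18 fell, where 32.9% and 32.4% of all genes did. The NRF2 axis genes Gclm (0.59), Nfe2l2 (0.56) and Nqo1 (0.52) rose most, and the biliverdin reductase Blvrb (-0.94), the heme enzyme Ppox (-0.79) and the NRF2 inhibitor Keap1 (-0.77) fell most.

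The amounts of RNA and Tn5 showed how far Tfrc and Ireb2 can differ with no KO. Tfrc had 115.5 and 102 CPM at 300 ng RNA, 571 and 571 at 3 ng, and 477 and 417 at 30 pg. Ireb2 had 23.6 and 19.8 CPM at 300 ng, 141 and 117 at 3 ng, and 93.3 and 49.5 at 30 pg. In both genes the 300 ng libraries were the lowest of the series. The 300 ng libraries were compared with the temperature series at 37 °C for 5 min, the tagmentation that the methods give for both. Of 10536 genes, 19.6% were called, 4.55% higher and 15.0% lower at 300 ng, and of the 6 members tested 2 fell and none rose. Tfrc was 5.65-fold lower (SE 0.20 on the log2 scale, adjusted p = 1.09e-08, edgeR), and Ireb2 fell by 2.36 on the log2 scale (SE 0.24, adjusted p = 3.51e-07). Both calls held in all 9 alternatives. Ftl1 had 0.85 (SE 0.39, adjusted p = 0.121) and Fth1 0.15 (SE 0.17, adjusted p = 0.548), and neither passed, nor did Aco1 at -0.28 (adjusted p = 0.374). Slc11a2 was not called either (0.28, SE 0.22, adjusted p = 0.404). Fold changes followed exon length with a rho of -0.28 over all genes, and the part of exon length in the results was not tested. Among 38 other iron genes, Mcoln1 (1.41) and Pcbp2 (0.53) were higher and Fbxl5 (-0.74) was lower. What else differs between these series of libraries was not tested.

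In the Tn5 series, Tfrc (40.0 to 69.7 CPM) and Ireb2 (17.1 to 26.3) were also low, Tfrc below both 300 ng libraries and Ireb2 overlapping them. Between 100 and 25 ng/ul, edgeR called 0 of 13177 genes (0%), with 84 genes at an unadjusted p under 0.05, and DESeq2 called 0 as well. Log2 fold changes of the members ran from -0.34 for Slc40a1 to 0.33 for Ncoa4. Libraries with the same replicate number deviated together in this series. When that number entered the fit as a block, 0 genes were again called by edgeR, with 1587 at an unadjusted p under 0.05, and Ftl1 had 0.15 (adjusted p = 0.683) and Fth1 0.29 (adjusted p = 0.327).

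Against ligation-based RNA-seq, most genes of the temperature and time series differed, 81.0% of 12880, with 38.9% higher and 42.1% lower in vitro. Of the 7 members tested 3 were higher and 3 lower. Fth1 was higher in vitro, by 1.48 on the log2 scale (SE 0.07, adjusted p = 8.03e-17, edgeR), in contrast to the levels of Ftl1 described above. Slc11a2, with 61.7 and 64.2 CPM in the ligation-based libraries, was higher by 0.65 (SE 0.08) and Aco1, with 74.6 and 75.4 CPM, by 0.57 (SE 0.08), and the libraries of both groups overlapped in either gene. Without replicate 1, Aco1 was at 0.28 and Slc11a2 at 0.33, and without replicate 2 at 0.32 and 0.43, as values with no test, since no residual degrees of freedom were left. Tfrc had 886 and 844 CPM in the ligation-based libraries, its highest levels among the bulk libraries, and was lower in vitro (-0.74, SE 0.10, adjusted p = 7.60e-08, and -1.11 without replicate 2). Ireb2, with 282 and 257 CPM there, was also lower in vitro (-1.61, SE 0.08, adjusted p = 3.91e-16), and so was Ncoa4 with 5.83 and 6.47 CPM (-1.09, SE 0.23, adjusted p = 8.58e-05). Slc40a1 was near the limit of counting in all of them (0.14, adjusted p = 0.792). Of 43 other iron genes, 16 were higher and 18 lower. Hscb (2.90), Iscu (2.46) and Blvrb (1.91) rose most and the metal importer Slc39a14 (-4.37), Nqo1 (-2.14) and transferrin, Trf (-1.29), fell most. Fold changes fell with exon length (rho -0.39 over all genes). Priming, sequencing platform and read length also differ between the 2 kinds of library, and their part was not tested.

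Among the libraries with high Ftl1, those with and without an antibody were compared within SET-seq of 100, 1000 and 10000 cells, with the number of cells as a factor. By the methods, the cytoplasmic RNA is moved to another tube before the nuclei meet the antibody. The labels name these libraries as separate sets, so the antibody cannot be told apart from whatever else differs between the sets. Of 11256 genes, 43.0% were called, 21.5% higher and 21.5% lower with an antibody, and of the 7 members tested 1 rose and 2 fell. Ireb2 rose, from 75.7, 68.5, 79.6, 102, 23.4 and 47.8 CPM without an antibody to 121 to 171 CPM with one, and no libraries overlapped (log2 fold change 1.15, SE 0.15, adjusted p = 8.58e-07, edgeR). Slc11a2 fell, from 39.4 to 72.4 CPM to 28.4 to 50.9 CPM, with some overlap (-0.71, SE 0.13, adjusted p = 9.63e-05). Ftl1 was 0.28 lower (SE 0.10, adjusted p = 0.0191), but without replicate 1 the change was -0.07 (adjusted p = 0.797). Fth1 (-0.26, adjusted p = 0.132) and Tfrc (0.46, adjusted p = 0.0503) missed the threshold, as did Aco1 (-0.15, adjusted p = 0.269) and Ncoa4 (0.65, adjusted p = 0.421). Without the shallow replicate 2 of 1000 cells, both passed, Fth1 at -0.39 (adjusted p = 0.00237) and Tfrc at 0.57 (adjusted p = 0.0201). Of 41 other iron genes, 5 rose and 14 fell, with Bach1 (0.97) and Cpox (0.68) among the largest rises and Slc39a14 (-1.14), Blvrb (-1.0) and Hmox1 (-0.87) as the largest falls. Fold changes rose with exon length (rho 0.29).

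No difference between the antibodies was detected. For H3K27me3 against H3K4me3, edgeR called 0 of 10830 genes (0%), with 347 at an unadjusted p under 0.05, and DESeq2 called 0 too. Ftl1 differed by -0.03 on the log2 scale with a 95% interval of -0.11 to 0.06, Ireb2 by 0.01 (-0.15 to 0.16) and Aco1 by 0.01 (-0.20 to 0.22). Fth1 (-0.10, -0.18 to -0.02) and Tfrc (-0.20, -0.38 to -0.03) had intervals that do not hold 0, but their adjusted p was 0.997. None of 41 other iron genes was called.

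In the single cells, Ftl1 was read together with the histone mark. Of 752 cells, 545 had more than 1000 and fewer than 5000 genes, 335 with H3K27me3 in 10 experiments and 210 with H3K4me3 in 6. The experiments used 96 cell barcodes, and 80 barcodes occurred in more than 1 experiment. Values are reads and not molecules, so single cells can carry most reads of a gene. The labelled cell type was least borne out in 3 experiments: in experiments 8, 9 and 10 of H3K27me3 the summed level of 7 stem cell markers was 1.5, 0.704 and 3.13 CPM, against 341 to 9938 CPM in the other 13. Among these 13, single genes made up nearly all of the sum in experiment 1 of H3K4me3, where Tdgf1 had 9919 CPM and Pou5f1 and Zfp42 no reads, and in experiment 2 of H3K27me3, where Dppa5a had 519 of 535 CPM. Results that rest on experiments 8 to 10 are given with and without them.

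**Figure D5:**
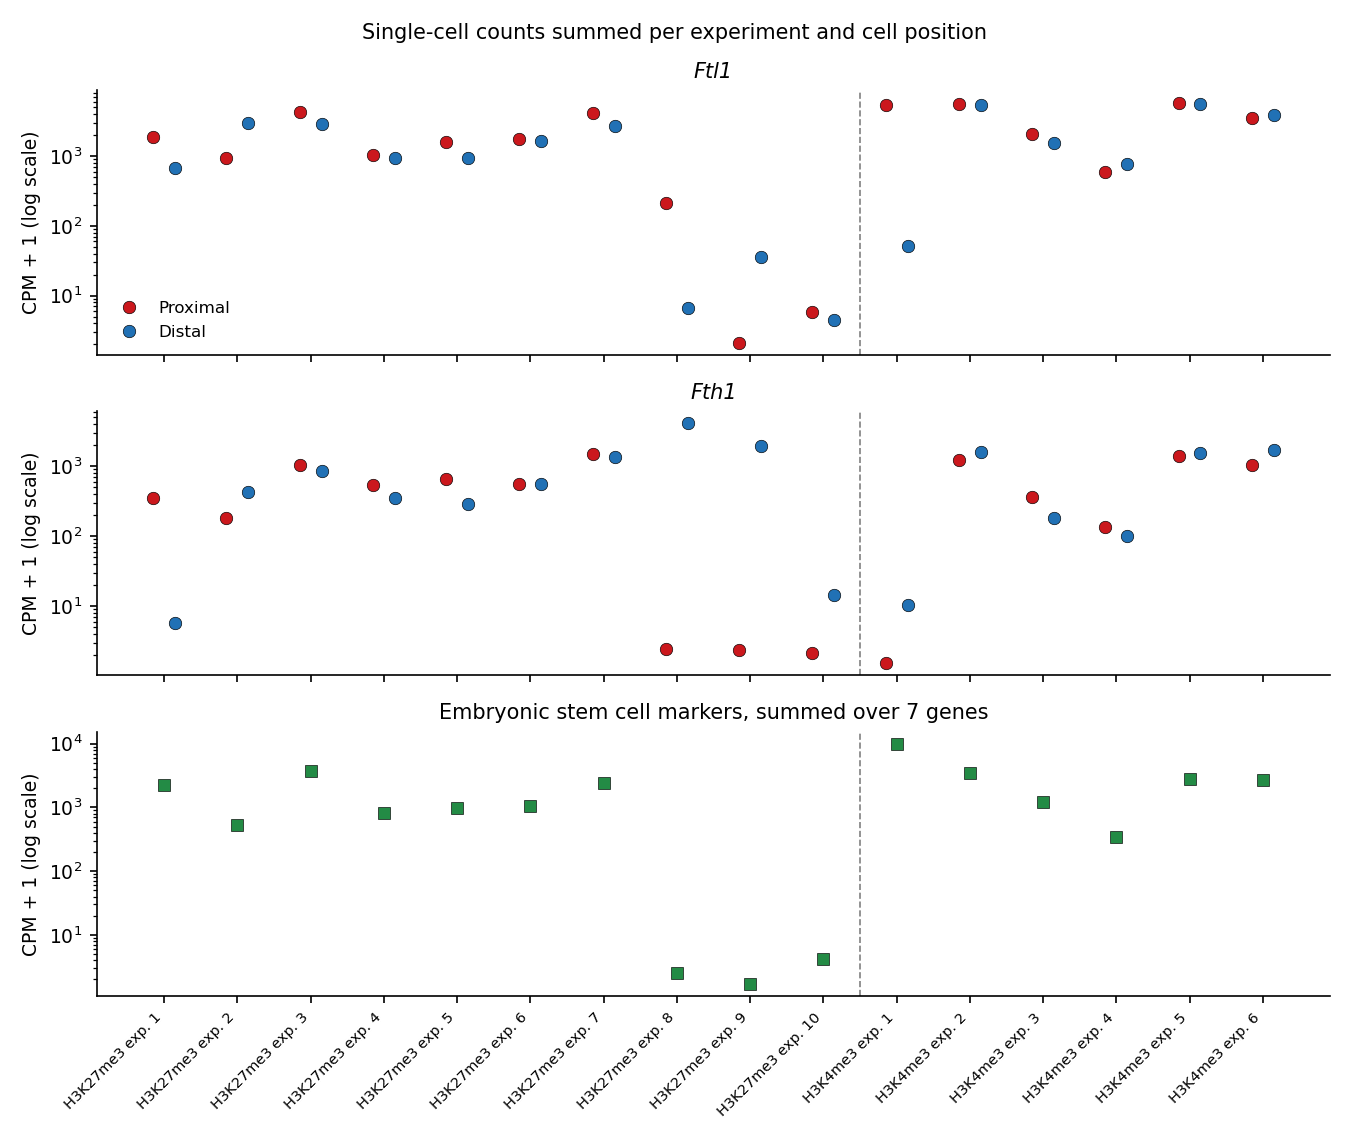
Ftl1, Fth1 and 7 summed embryonic stem cell markers in CPM + 1 on a log scale, from counts summed over the kept cells of each of 16 experiments, with proximal cells in red and distal cells in blue for the ferritins. Experiments 8 to 10 of H3K27me3 have stem cell markers at 3.13 CPM or less and Ftl1 at 119 CPM or less over both positions, and in the other experiments Ftl1 is at 667 CPM or more over both positions, with the distal cells of H3K4me3 experiment 1 below that.

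Ftl1 was high in all experiments but these 3. Experiments 1 to 7 of H3K27me3 had 1339, 1442, 3520, 978, 1192, 1698 and 3278 CPM. Experiments 1 to 6 of H3K4me3 had 4571, 5453, 1837, 667, 5693 and 3687 CPM, and Ftl1 had at least 1 read in all 210 of these cells. Experiments 8, 9 and 10 of H3K27me3 had 119, 17.5 and 4.23 CPM, with reads in 24 of 62, 14 of 47 and 23 of 56 cells. In experiments 8 and 9 a single cell held 96.3% and 93.6% of the Ftl1 reads. All levels of the other 13 experiments lie above the highest bulk library of the low range, while Hprt in them ranged from 0 to 379 CPM. In experiment 1 of H3K27me3, Hprt had 1 read (0.0963 CPM) with Ftl1 at 1339 CPM, and in experiment 1 of H3K4me3 Hprt had none with Ftl1 at 4571 CPM. Both are small experiments of 7 and 4 cells, and in the latter 99.6% of the Ftl1 reads were in 1 cell.

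Fth1 ranged over the single-cell experiments from 1.82 CPM in experiment 1 of H3K4me3 to 1827 CPM in experiment 8 of H3K27me3. In that highest experiment 99.9% of the reads were in 1 cell. Its median was 497 CPM over the H3K27me3 experiments and 825 over those of H3K4me3. Tfrc had reads in 70 of 335 and 76 of 210 cells, at 0 to 382 and 0.454 to 114 CPM per experiment. Aco1 was read in 88 and 46 cells, Ireb2 in 35 and 40, Ncoa4 in 31 and 34, Slc11a2 in 15 and 41, and Slc40a1 in 1 cell of each mark. The cells with reads were unevenly spread over experiments: Aco1 was read in all 45 cells of H3K27me3 experiment 6, at 158 CPM, and Tfrc in 12 of 14 cells of experiment 3.

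For cells proximal against distal to the Wnt3a bead, counts were summed over 533 cells in 14 experiments with at least 3 cells at each position, and tested with the experiment as a block. Of 4885 genes, edgeR called 0 (0%), with 181 at an unadjusted p under 0.05, and DESeq2 called 24, none of them a member. Ftl1 had a log2 difference of 0.35 (SE 0.49), with a 95% interval from -0.61 to 1.31. Fth1 had -0.30 (SE 0.83), Tfrc 1.12 (SE 0.72), Ireb2 -0.34 (SE 0.92) and Aco1 1.19 (SE 1.36), and every adjusted p was 0.998. The interval of Ftl1 thus holds a 2-fold difference as well as none. Without experiments 8 to 10, Ftl1 had 0.22 and Fth1 0.44, and no member was called (adjusted p = 0.987). None of the 5 members tested differed between H3K27me3 and H3K4me3 in the effect of position (edgeR, adjusted p = 0.999). By the study's clusters of these cells, the median Ftl1 over experiments was 2769 CPM in Proxi, 667 in Mix and 2615 in Dista, and without experiments 8 to 10 it was 3392, 748 and 2615 CPM, which is a description since the clusters were made from the same transcripts.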

How the data were processed

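For each bulk library the authors deposited a table of counts per gene, and for the single cells 1 count table for each histone mark. By the methods and the submitters' processing notes, bulk reads were trimmed with Trim Galore 0.6.4, mapped to mm9 with STAR 2.5.4b and counted with featureCounts 2.0.0. The file headers give no option to count reads that map to several places, and featureCounts leaves these out by default. Single-cell reads were split by barcode and mapped to mm9 with zUMIs, on exons and introns, without molecular identifiers. Here, CPM were computed without Rn45s, and RPKM with the exon length of the count tables. Groups came from the labels. The members and the gene lists were chosen with earlier results of these data known. Beside the 8 members, the 3 largest called rises and falls among the other iron genes, and the genes most like Ftl1 (10) and Fth1 (5), were named. Some results for other iron genes that this rule names are not reported here.

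Counts were tested with edgeR 4.0.16 (R 4.3.3, TMM, filterByExpr, quasi-likelihood F test, 2-sided) and Benjamini-Hochberg adjustment over all genes tested, with a threshold of 0.05. Single cells with more than 1000 and fewer than 5000 genes were summed per experiment and position, with positions from the study's list of cells, and doublets were not called. Alternatives were DESeq2 1.42.0, its size factors, no filter, Rn45s kept, the replicate number as a block, other WT libraries and leaving out libraries. On simulated counts with 200 changed genes and a fixed dispersion of 0.05, 18% to 100% were recovered at a log2 change of 1 and 91% to 100% at 2. For proximal against distal, 100% were recovered at 1, but in the data the SE was 0.49 for Ftl1 and 1.36 for Aco1. The simulated percentages therefore do not give the power of that comparison. Copies of the exons were searched with BLAST+ 2.17.0 (at least 90% identity), and IREs in the GENCODE transcripts of NCBIM37. In the Tn5 series alone every pair of amounts had deviations of same-numbered libraries that correlated above 0.1 (r from 0.62 to 0.74), which comes from the data and not from the labels. Replicate libraries differed by more than sampling noise in every condition (chi-square per degree of freedom of 1.47 or more). Floors of 3 counts cover counting error only, since PCR reads are not independent molecules. The files of the chromatin libraries were not used here.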

Additional observations from a re-analysis of the deposited data

Results flagged for a closer look

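In each mark, the single-cell experiment furthest from the others was compared with Dixon's 95% limit for every member, over 16 groups of 6 or 10 experiments. Chance flags about 1 in 20 if the values are normally distributed. The CPM were not transformed and hold many zeros, as for Slc11a2 in 4 of 10 experiments of H3K27me3, so that rate need not apply. Of the 16 groups, 5 had an experiment that stood apart, 3 of them in experiment 3 of H3K27me3, a small experiment of 14 cells. Tfrc had 381.779 CPM there, next to 129 in the second highest, with reads in 12 of 14 cells. Slc11a2 had 46.9498 CPM in the same experiment, next to 8.25, with 97.5% of its reads in 1 cell. Slc40a1 had 0.199362 CPM, from 1 cell, and no read in the other experiments of that mark. Ncoa4 had 92.52 CPM in experiment 6 of H3K27me3, next to 31.6, with reads in 12 of 45 cells and 44.8% of them in 1 cell. In H3K4me3, Slc40a1 had 1.46352 CPM in experiment 6, again from 1 cell, and none elsewhere. For Slc40a1, a single experiment with reads makes the gap equal to the whole range, so both of its flags were fixed by that.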

How the results depend on the processing

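Over the comparisons, 655 values of members were recomputed under the alternatives. Of these, 594 counted as the same, 39 lost a call, 10 gained one, 10 moved and 2 reversed. A tested value counted as the same if it kept its side of the threshold, and 23 of the 594 were uncalled values that changed sign. A value with no test counted as the same if it shifted by less than the SD between replicate libraries. Of those that moved, 9 were values of the temperature series against ligation without a replicate number. Both reversals came from taking SET-seq of 10000 cells without an antibody as WT for the KO, which gave Tfrc 0.64 and Slc11a2 -0.62. Fth1 in KO kept its call in 21 of 21 alternatives (log2 fold change -2.87 to -1.74). Counts of called genes moved as follows, and the cause was not tested. KO against WT (4935 genes) gave 2911 with an unadjusted p below 0.05 and an absolute log2 change above 1. KO1 against KO2 (858) gave 531 by that rule and 356 with DESeq2. RNA 300 ng against 37 °C 5 min (2063) gave 1361 with DESeq2. Proximal against distal (0) gave 24 with DESeq2, 24 with no filter on low counts and 55 with no replicate block, where a block is the experiment.

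Leaving out single libraries gave 4212 to 5066 genes in KO, and 181 to 1361 between its clones (340 without KO1 replicate 1, 181 without KO1 replicate 2, 1361 without KO2 replicate 1). For RNA 300 ng it gave 667 to 2676 (1093 without replicate 2 of 300 ng, 667 without replicate 2 of 37 °C 5 min). Leaving out a replicate number gave 5463 to 5898 for temperature and 1626 to 5043 for the antibody (4839), where 1626 is without replicate 1, and 0 for Tn5, the marks and, by experiment, position. For the ligation-based libraries, leaving out a number left no residual degrees of freedom, so only values were computed. A replicate block gave 4778 genes in KO, 639 between its clones, 7368 for temperature, 1354 for RNA 300 ng, 10456 for ligation, 4733 for the antibody and 0 for Tn5 and the marks. With it, adjusted p was 0.0544 for Tfrc in KO, and 0.111, 0.0751 and 0.0927 for Fth1, Ireb2 and Aco1 between the clones, and 0.0401 for Tfrc with an antibody. Libraries with the same number deviated together in the Tn5 series (r from 0.62 to 0.74 over 3 pairs of amounts). In the temperature series r exceeded 0.1 in 28.6% of 28 pairs of conditions (highest 0.37, median 0.02), and in the ligation and antibody comparisons in 5.56%, so there the numbers were not taken as pairs.

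The gap between the low and the high range of Ftl1 (14.2) was 26.7 with Rn45s in the totals and, chosen after seeing the data, 25.1 without 30 pg RNA replicate 1. Of the 10 genes most like Ftl1, 2 were shared with Spearman's rho, 6 with a pseudocount of 0.1 and 6 over libraries, and of the 5 most like Fth1, 0 with rho and 2 over libraries. The in vitro reference of the KO, the cluster medians without experiments 8 to 10 and the fits without experiments 8 to 10 and without SET-seq 1000 cells replicate 2 were also chosen after seeing the data. Depth limits Slc40a1, which had at most 28 counts in any bulk library, and Ftl1 in KO.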

Other observations

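Aebp2, the gene targeted in the KO, was read at 123 to 75820 CPM over the 10 single-cell experiments of H3K27me3, with a median of 20553 CPM and reads in all 335 cells. Over the 6 experiments of H3K4me3 it had 0 to 7868 CPM, with a median of 64.7 CPM and reads in 136 of 210 cells. These totals enter the CPM of the members in those experiments.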
